A study of Mus musculus with 29 samples.

Results

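Cholangiocytes are the epithelial cells that line the bile ducts, a small share of the cells of a whole liver that is mostly made of hepatocytes. The 8 genes described here are commonly used to mark these cells and the ductular cells that spread from the portal tracts in injured liver, namely Sox9, Spp1, Epcam, Cldn7, Cd24a, Muc1, Krt7 and Krt19. They were chosen by gene symbol, and all 8 were found, 1 row each, among the 55421 genes of the count table. Ductular cells are known to build tight epithelial junctions, to carry simple keratins that hepatocytes lack and to secrete the matrix protein osteopontin, and they expand when hepatocytes are damaged or fail to divide.

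RNA of whole liver was sequenced from 6 groups of mice, 3 of each sex. Within a sex these were young mice on vehicle (young vehicle), old mice on vehicle (old vehicle) and old mice on HDM201 (old HDM201). HDM201 inhibits MDM2, the ubiquitin ligase that keeps p53 low, and the study asked what it does in aged tissue. Old mice were C57BL/6J, 20 months old if female and 24 months old if male, and young mice of both sexes were 5 months old and C57BL6/N, ages that follow the labels and differ slightly for old females and young mice from those in the methods of the study, so that age and substrain cannot be told apart, nor can sex and age among the old mice. The drug was dosed orally once a day for 14 days at 10 mg/kg, and every other mouse, young mice included, received the vehicle, a phosphate-buffered 0.5% methylcellulose. Read counts covered 27 mice (5 young vehicle, 4 old vehicle and 5 old HDM201 females, and 4 young vehicle, 4 old vehicle and 5 old HDM201 males), with 16485900 to 23570458 counted reads a mouse. Old vehicle male 1 and young vehicle male 5 had FPKM values and no counts. In whole liver, fewer cells of a type and less RNA in each such cell cannot be told apart.

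Some values of the whole series bear on what follows. The target of the drug, Mdm2, which p53 itself induces, differed by 0.33 ± 0.077 (log2 fold change ± SE) with HDM201 in females (FDR 0.0350) and by 0.00089 ± 0.076 in males (FDR 0.998), and Cdkn1a, another p53 target, differed by 0.12 (FDR 0.925) and 2.26 (FDR 0.298). These are RNA values. By western blot the study reported more p53 protein and more p21, the product of Cdkn1a, in livers of mice given HDM201 than vehicle. It also reported higher RNA of some p53 target genes in female livers. FDR stands for the adjusted p of edgeR's quasi-likelihood test over all genes tested, and a gene was called at an FDR under 0.05. Old HDM201 male 4 stood apart from the other males given the drug in several of the genes below, and its weight is given beside the values that change most without it. The hepatocyte genes were as abundant as this tissue requires, with Alb averaging 91294 CPM (library-size-scaled counts, with TMM factors) over the mice, while 5 of 10 pancreas markers were at 0 in every mouse.

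Of the 8 genes, Spp1 was by far the most abundant per length. Its median over the 27 mice was 29.0 RPKM (CPM per kilobase of exon), against 1.61 for Sox9, 1.46 for Cd24a, 1.20 for Epcam, 1.14 for Krt19, 0.60 for Cldn7, 0.51 for Muc1 and 0.20 for Krt7. Behind these levels stood 401 to 3266 reads of Spp1 in a mouse and 42 to 318 of Sox9, but as few as 6 reads of Krt7 or Cldn7, 7 of Krt19 and 10 of Muc1 in the lowest mice, so that the lower genes carry a large counting error. Within a gene the highest mouse exceeded the lowest by 5.36 times (Muc1) to 14.9 times (Krt19). Group means had nearly the same order in 7 of the 8 genes, with young vehicle males lowest and old HDM201 females highest, and most neighbours in that order overlapped. Sox9 was ordered differently, from young vehicle females at the low end to old HDM201 males at the high end.

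**Figure D1:**
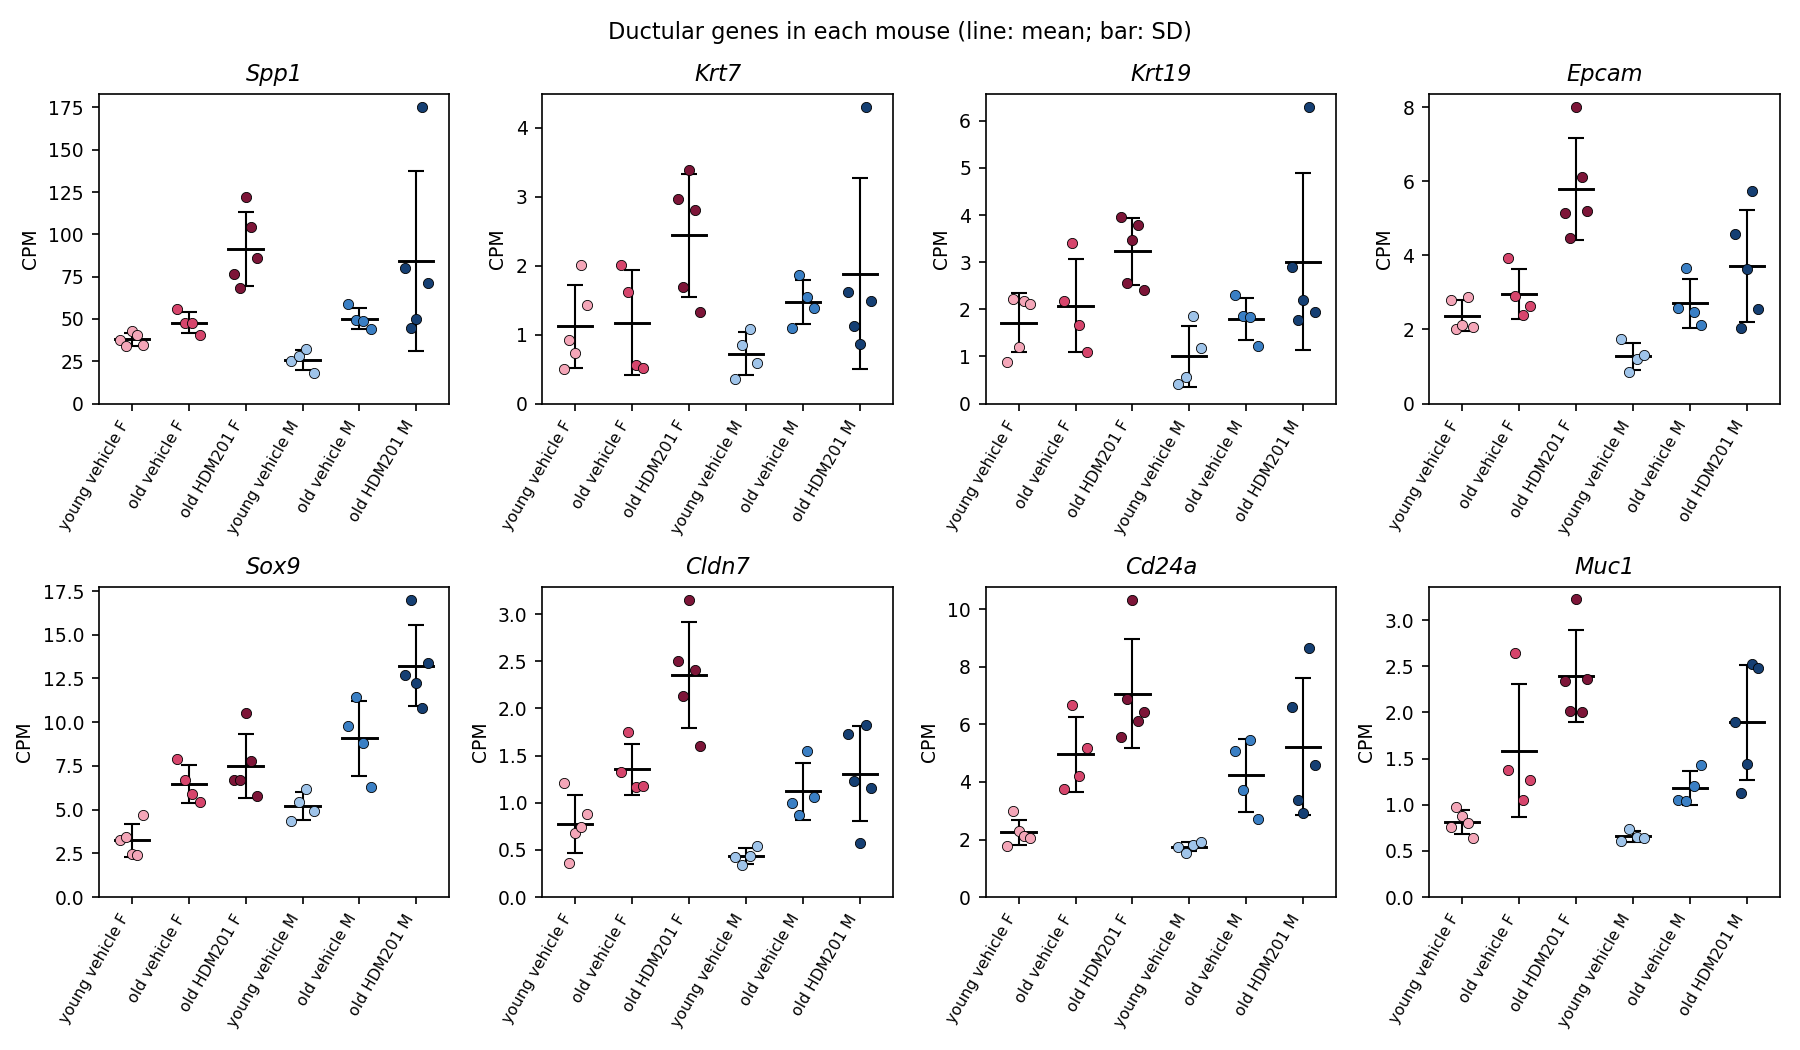
CPM of each of the 8 ductular genes (vertical axis, from 0) in each mouse, by group, with the group mean as a line and the SD as a bar. Both young groups have the lowest means in every panel, though several young females lie among the old vehicle mice in Krt7 and Krt19. Old HDM201 females have the highest mean in all but Sox9, and old HDM201 male 4 stands far above its group in Spp1, Krt7 and Krt19.

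Promoter sequence was at hand for 5 of the 8 genes. The 250 bases before the start of 4 of them, which passed the test in at least 1 comparison below and whose windows hold no annotated exon, are shown from the GRCm38.p6 RefSeq promoter table, 5′ to 3′ on the plus strand, in the order Spp1 (chr5:104434861-104435110), Epcam (chr17:87635729-87635978), Cldn7 (chr11:69964529-69964778) and Muc1 (chr3:89228806-89229055). Capitals mark the motif letters found by a search of both strands.
Spp1: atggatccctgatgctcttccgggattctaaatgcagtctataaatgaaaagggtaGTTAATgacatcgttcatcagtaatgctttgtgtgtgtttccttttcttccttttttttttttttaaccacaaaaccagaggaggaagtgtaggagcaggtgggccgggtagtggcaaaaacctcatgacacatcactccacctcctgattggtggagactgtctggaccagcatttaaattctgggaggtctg
Epcam: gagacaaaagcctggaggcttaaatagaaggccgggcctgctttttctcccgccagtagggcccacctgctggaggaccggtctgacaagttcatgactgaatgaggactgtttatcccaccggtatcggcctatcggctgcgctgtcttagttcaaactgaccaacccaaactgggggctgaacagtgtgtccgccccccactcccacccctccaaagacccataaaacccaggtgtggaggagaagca
Cldn7: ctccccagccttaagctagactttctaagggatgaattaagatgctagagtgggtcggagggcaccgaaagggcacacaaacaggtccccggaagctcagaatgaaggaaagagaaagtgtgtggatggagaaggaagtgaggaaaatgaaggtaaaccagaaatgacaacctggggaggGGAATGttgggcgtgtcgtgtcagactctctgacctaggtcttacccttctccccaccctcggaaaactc
Muc1: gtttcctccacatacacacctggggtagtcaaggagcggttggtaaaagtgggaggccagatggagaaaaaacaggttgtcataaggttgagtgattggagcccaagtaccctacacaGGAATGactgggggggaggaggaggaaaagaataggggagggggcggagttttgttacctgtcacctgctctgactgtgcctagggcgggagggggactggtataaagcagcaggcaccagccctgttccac
Of 6 motifs searched, the letters GGAATG, the core that TEAD factors bind, were in the windows of Cldn7 and Muc1, and are in 12.6% of 32851 mouse promoter windows of that length. The half-site GTTAAT of HNF1 was in the Spp1 window and is in 6.43% of all windows. No match was found in these windows for GTGGGAA (RBPJ, 5.42% of all windows), ACAATG (SOX, 10.7%), TGANTCA (AP-1, 6.75%) or CACGTG (E-box, 6.02%), and none of the letters searched overlaps another where they were found. A match of this kind describes letters and not a bound site.

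Sox9 is the transcription factor that sets the biliary fate in the embryo and marks ductular cells in the adult liver, and it lies at chr11:112782224-112787760 on the plus strand (GRCm38). It read 3.24, 3.44, 2.44, 2.41 and 4.67 CPM in the 5 young vehicle females, 7.89, 6.67, 5.92 and 5.42 CPM in the 4 old vehicle females, and 6.72, 6.71, 10.5, 7.80 and 5.80 CPM in the 5 old HDM201 females. Every old female was above every young female, while the old females with and without the drug overlapped. In males it read 4.34, 5.46, 6.20 and 4.90 CPM in young vehicle mice, 9.79, 11.4, 8.79 and 6.32 CPM in old vehicle mice, and 12.7, 17.0, 12.3, 10.8 and 13.4 CPM in old HDM201 mice. The young and old males did not overlap either, and 4 of the 5 males given HDM201 exceeded the highest old vehicle male. Sox9 rose with age in females, by 1.01 ± 0.20 (log2 fold change ± SE, FDR 0.00246), and stayed called with any 1 mouse left out. The difference with age in males, 0.80 ± 0.20, missed the threshold (FDR 0.0521, and 0.00530 by DESeq2), and was called without old vehicle male 5 (0.95, FDR 0.0209). With HDM201 the fitted differences were 0.21 ± 0.18 in females (FDR 0.523) and 0.55 ± 0.18 in males (FDR 0.294, unadjusted p 0.0103 by the same edgeR fit).

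Spp1 encodes osteopontin, a secreted matrix protein that ductular cells release and that macrophages and other cells can also make, at chr5:104435118-104441050 on the plus strand. Its annotated exons share 309 bases with those of Gm42793 on the same strand, whose reads could be split from it or lost in counting. The CPM values were 37.5, 34.3, 43.0, 40.3 and 34.5 in young vehicle females, 55.6, 47.8, 47.6 and 40.3 in old vehicle females, and 76.5, 68.4, 122, 104 and 86.1 in old HDM201 females. The lowest female given the drug was above the highest old vehicle female, whereas young and old vehicle females overlapped. Spp1 in males stood at 25.2, 27.9, 32.3 and 18.2 CPM in young vehicle mice, at 58.8, 49.5, 48.7 and 43.9 CPM in old vehicle mice, and at 79.9, 44.6, 50.1, 175 and 71.3 CPM in old HDM201 mice. Young males lay below all old males, and the drug group spread widely, with 2 of its 5 mice inside the range of old vehicle males and male 4 above every other of the 27 mice.

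Spp1 rose with HDM201 in females by 0.93 ± 0.16 (FDR 0.0104), and this call remained with any 1 mouse left out. In males the difference was 0.76 ± 0.35 (FDR 0.425), and 0.30 without old HDM201 male 4. With age it rose by 0.35 ± 0.099 in females (FDR 0.0167) and by 0.96 ± 0.16 in males (FDR 0.0152). The call in females was lost without old vehicle female 1 (0.28, FDR 0.0648) and in a fit of all 6 groups together (0.34, FDR 0.352), and that same fit left the rise with HDM201 in females above the threshold (0.94, FDR 0.0653). The female effect of age minus the male effect was -0.60 ± 0.20 (FDR 0.0881, unadjusted p 0.00725 by the same edgeR fit), and DESeq2 put its adjusted p at 0.0451.

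Epcam, the epithelial cell adhesion molecule, is carried by bile duct epithelium and not by mature hepatocytes, and lies at chr17:87635979-87651129 on the plus strand. Epcam in young vehicle females was 2.80, 2.00, 2.13, 2.87 and 2.06 CPM, in old vehicle females 3.92, 2.91, 2.38 and 2.64 CPM, and in old HDM201 females 5.15, 4.47, 8.01, 6.11 and 5.19 CPM. Each female given HDM201 exceeded each old vehicle female. In males the values were 1.75, 0.853, 1.20 and 1.32 CPM (young vehicle), 2.57, 3.65, 2.47 and 2.12 CPM (old vehicle) and 4.58, 2.03, 3.63, 5.75 and 2.54 CPM (old HDM201). Young and old vehicle males did not overlap, and the 2 old male groups did. Epcam rose with HDM201 in females by 0.96 ± 0.20 (FDR 0.0229), a call lost without old vehicle female 2 (0.95, FDR 0.0757), old vehicle female 4 (0.91, FDR 0.0695) or old HDM201 female 4 (0.94, FDR 0.0604). Its other differences did not pass, at 0.46 ± 0.31 with HDM201 in males (FDR 0.559), 0.35 ± 0.20 with age in females (FDR 0.204) and 1.08 ± 0.28 with age in males (FDR 0.0604, adjusted p 0.0103 by DESeq2).

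Cldn7, a claudin of epithelial tight junctions, lies at chr11:69964779-69967885 on the plus strand and was counted with 6 to 77 reads a mouse. Young vehicle males, at 0.422, 0.341, 0.435 and 0.545 CPM, were all below old vehicle males, at 0.995, 0.870, 1.55 and 1.06 CPM. Its rise with age in males, 1.34 ± 0.31 (FDR 0.0440), was the largest fitted difference of the 8 genes in that comparison and the least secure, since it was lost without any 1 of the 8 mice (FDR 0.0577 to 0.138, log2 fold change 1.14 to 1.48). In females it was 1.21, 0.360, 0.676, 0.746 and 0.885 CPM in young vehicle mice, 1.32, 1.75, 1.16 and 1.18 CPM in old vehicle mice, and 2.50, 2.13, 3.15, 2.41 and 1.604 CPM in old HDM201 mice. The fitted differences in females stood just short of the threshold, at 0.84 ± 0.30 with age (FDR 0.0516, and 0.0486 by DESeq2) and 0.79 ± 0.23 with HDM201 (FDR 0.0690, and 0.0333 by DESeq2). The first was called without young vehicle female 1 (1.03, FDR 0.0256) and the second without old HDM201 female 5 (0.90, FDR 0.0461). In old HDM201 males Cldn7 spanned 0.576 to 1.83 CPM, and the difference from old vehicle males was 0.23 ± 0.34 (FDR 0.815).

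Cd24a encodes a small surface glycoprotein of ductular cells that B cells, neutrophils and red cell precursors also carry, at chr10:43578284-43584265 on the plus strand. It was 1.78, 2.98, 2.29, 2.12 and 2.06 CPM in young vehicle females and 3.76, 6.67, 4.21 and 5.19 CPM in old vehicle females, with no overlap. Males showed the same separation, at 1.75, 1.54, 1.79 and 1.91 CPM when young and at 5.08, 3.71, 5.46 and 2.71 CPM when old. Cd24a rose with age by 1.16 ± 0.21 in females (FDR 0.00138), a call kept with any 1 mouse left out, and by 1.28 ± 0.25 in males (FDR 0.0259), a call lost without any 1 of the 4 young vehicle males or without old vehicle male 2 or 4 (FDR 0.0517 to 0.0834, log2 fold change 1.13 to 1.33). The 8 B cell markers, which include the receptor chain Cd79a, also rose with age, all 8 in females and 6 of 8 in males (median log2 fold change 2.14 and 1.78). Of all genes tested, 16.8% in females and 2.76% in males were called higher with age. The summed level of the B cell markers went from 3.00 to 6.60 CPM in young females to 12.4 to 32.4 CPM in old vehicle females. Neutrophil markers had medians of 3.82 and 2.09 with age in females and males, over 3 and 2 of 9 that could be tested, and erythroid markers 0.17 and 1.59. The part of these cells in the Cd24a result was not tested. With HDM201 Cd24a differed by 0.50 ± 0.21 in females (FDR 0.184) and 0.31 ± 0.33 in males (FDR 0.727), whereas the B cell markers had a median of -0.89 in females (1 of 8, Cd79b, fell, where 2.9% of all genes tested were called lower). The medians with HDM201 in females and males were -1.51 and 0.18 for neutrophil markers and -1.34 and -2.26 for erythroid markers.

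Muc1 encodes a membrane mucin of the apical surface of ducts, and lies at chr3:89229057-89233381 on the plus strand. In females it read 0.762, 0.976, 0.883, 0.804 and 0.639 CPM in young vehicle mice, 1.38, 2.64, 1.05 and 1.27 CPM in old vehicle mice, and 2.34, 2.02, 3.23, 2.01 and 2.36 CPM in old HDM201 mice. Old vehicle female 2 lay inside the range of the drug group, and the other 3 old vehicle females lay below it. Its rise with age in females, 0.99 ± 0.30 (FDR 0.0235), fell to 0.62 (FDR 0.107) without that mouse and was also lost without young vehicle female 5 (0.91, FDR 0.0529). In males Muc1 went from 0.602 to 0.739 CPM in young vehicle mice to 1.04 to 1.43 CPM in old vehicle mice and 1.12 to 2.52 CPM in old HDM201 mice. Young and old vehicle males were again separate, though 0.85 ± 0.25 did not pass (FDR 0.0847). The differences with HDM201 were 0.57 ± 0.27 in females (FDR 0.242) and 0.69 ± 0.28 in males (FDR 0.379).

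Krt7 (chr15:101411043-101430313, plus strand) and Krt19 (chr11:100140810-100148665, minus strand) are the keratin pair by which bile ducts are usually stained, and neither passed the test in any of the 7 comparisons, in edgeR or in DESeq2, with Krt7 at an unadjusted p under 0.05 in age in males (0.0134 by the edgeR fit) and HDM201 in females (0.0271). Krt7 shares 77 exonic bases with the antisense gene Gm671, and since the strand setting of the counting is not given in the sources used here, reads of the 2 cannot be separated there. In females Krt7 spanned 0.508 to 2.01 CPM (young vehicle), 0.519 to 2.01 CPM (old vehicle) and 1.32 to 3.39 CPM (old HDM201), and Krt19 spanned 0.889 to 2.21, 1.08 to 3.40 and 2.41 to 3.96 CPM in the same groups. The range of old vehicle females overlapped both others for each keratin, and the fitted differences with HDM201 were 1.04 ± 0.41 for Krt7 (FDR 0.157) and 0.62 ± 0.29 for Krt19 (FDR 0.232), against 0.086 ± 0.46 (FDR 0.911) and 0.29 ± 0.35 (FDR 0.554) with age. In males Krt7 was 1.62, 1.12, 0.864, 4.30 and 1.49 CPM and Krt19 was 2.91, 1.76, 2.19, 6.28 and 1.93 CPM with HDM201, where male 4 is the high one in both. Without that mouse the difference of Krt7 with HDM201 in males went from 0.37 to -0.20 and that of Krt19 from 0.75 to 0.29. With age in males the keratins differed by 1.02 ± 0.34 (Krt7, FDR 0.117) and 0.83 ± 0.42 (Krt19, FDR 0.287).

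Simple keratins are also expressed by the mesothelium that covers the liver, and the summed level of its 8 markers was set beside both keratins in each mouse. Their summed level was 36.6 CPM in old HDM201 male 4 and 5.13 to 10.4 CPM in the other 4 mice of that group. It spanned 9.16 to 19.8 CPM in old HDM201 females and 3.26 to 12.8 CPM in old vehicle females, and none of the 8 markers was at 0 in all mice. Old vehicle females 3 and 4, the lowest for Krt7 in their group at 0.553 and 0.519 CPM, had 3.26 and 6.51 CPM of mesothelial markers, whereas females 1 and 2 had 12.8 and 12.05 CPM. Not all mice followed this. Young vehicle male 3 had 14.1 CPM of markers with Krt7 at 1.09 CPM, and young vehicle female 2 had 12.2 CPM with Krt7 at 0.925 CPM. Of these markers, 2 of 5 tested rose with age in females, where 16.8% of all genes were called higher. Only these 2 of 5 had a fitted value above 0 there, and the median of the list was -0.098. None of 5 passed with HDM201 in females (all genes: 2.35% higher, 2.9% lower) and none of 4 with HDM201 in males (0% and 0.00709%). None of 4 passed with age in males either (2.76% and 0.931%). The median log2 fold change of the markers was 0.83 with HDM201 in females (4 of 5 above 0) and 0.94 in males (4 of 4). With age in males it was -0.13 (1 of 4 above 0). In each comparison without a call, 1 marker had an unadjusted p under 0.05 by edgeR. The part of this tissue in the keratin values was not tested.

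**Figure D2:**
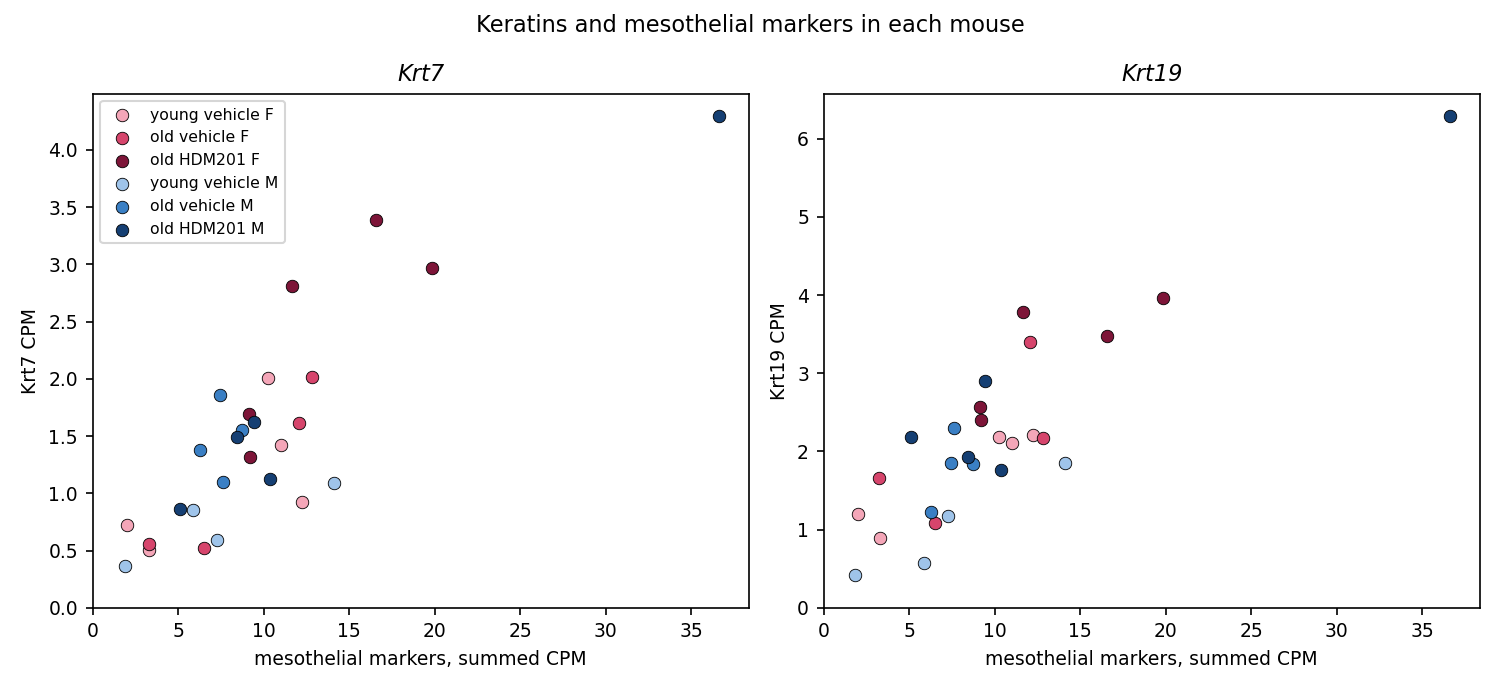
CPM of Krt7 and Krt19 (vertical axes) against the summed CPM of 8 mesothelial markers (horizontal axes), 1 point a mouse, coloured by group. The mice with the lowest marker sums are among the lowest in both keratins, and old HDM201 male 4, at 36.6 CPM of markers, is highest in both.

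Read by comparison, the 8 genes counted as follows against all genes tested. With age in females 4 of 8 rose (Sox9, Cd24a, Muc1 and Spp1), where 16.8% of 14233 genes were called higher in old mice, and 3 of 8 had ranges that did not overlap, where 12.5% of all genes did so in that direction. With age in males 3 of 8 rose (Spp1, Cd24a and Cldn7) against 2.76% of 13755 genes, and 7 of 8, all but Krt19, were separate in the CPM of the males with counts, against 7.33%. On FPKM Krt7 and Muc1 overlapped in these males. Young vehicle male 5, which has no counts, lay above the old vehicle males with counts in Spp1, Sox9 and Cd24a on FPKM, and within their range in Cldn7. HDM201 in females raised 2 of 8 (Spp1 and Epcam) against 2.35% of 14445 genes, and the same 2 were separate against 5.3%. HDM201 in males raised none of 8, where 0% of 14109 genes were called higher, and left none separate against 1.54%. At an unadjusted p under 0.05 there were 2 of 8 in that last comparison, and DESeq2 called none of the 8. The median log2 fold change of the 8 genes was 0.60 and 0.99 with age in females and males and 0.71 and 0.51 with HDM201 in females and males, beside medians of 0.009, -0.015, 0.001 and 0.014 over all genes tested. In each of the 4 comparisons the fitted value was above 0 for all 8 genes, though with HDM201 in males Krt7 was below 0 without male 4 (-0.20) and Cldn7 and Cd24a were below 0 on FPKM (-0.00222 and -0.58), a fit that brings in old vehicle male 1 and without it gave 0.0456 and 0.192, and the keratins with age in females were below 0 with some single mice left out. On FPKM, by limma, the adjusted p of Spp1 and Epcam with HDM201 in females was 0.0545 and 0.0974. The comparisons of age and of HDM201 within a sex share the old vehicle mice, so they are not independent of each other.

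**Figure D3:**
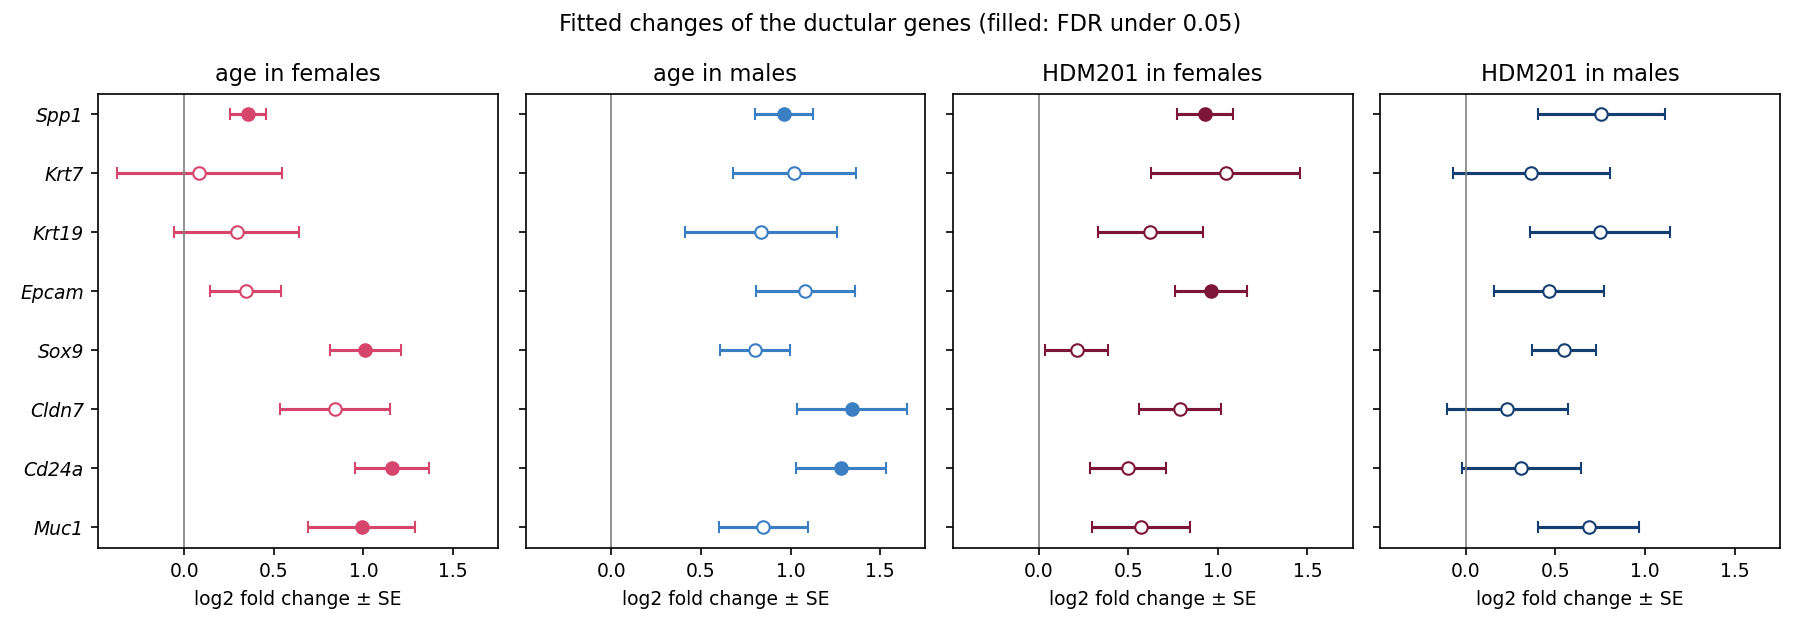
Log2 fold change ± SE (horizontal axis) of the 8 genes in the comparisons of age and HDM201 within each sex, filled where the FDR was under 0.05. All points lie right of 0 (Cldn7 and Cd24a do not on FPKM with HDM201 in males), 4 are filled for age in females, 3 for age in males, 2 for HDM201 in females and none for HDM201 in males.

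Among young mice, 2 of the 8 genes were higher in females, where 5.63% of 13875 genes were, and the same 2 were separate, where 7% were. Spp1 was higher by 0.54 ± 0.15 (FDR 0.0368) and Epcam by 0.87 ± 0.24 (FDR 0.0401). The call of Spp1 was lost without young vehicle male 1 or 4 or young vehicle female 1, 3, 4 or 5 (FDR 0.0505 to 0.0677, log2 fold change 0.41 to 0.58), and that of Epcam without any 1 mouse but young vehicle male 1 (FDR 0.0503 to 0.0913, log2 fold change 0.73 to 0.94). Sox9 went the other way, at 3.24 ± 0.92 CPM (SD, n = 5) in young vehicle females and 5.22 ± 0.79 CPM (SD, n = 4) in young vehicle males, a difference of -0.70 ± 0.21 that missed the threshold (FDR 0.0525) and was called without young vehicle male 1 (-0.78, FDR 0.0384) or young vehicle female 5 (-0.86, FDR 0.0221). The difference between the sexes in the effect of age was called for none of the 8, where 3.92% of 14721 genes were, with 2 at an unadjusted p under 0.05 and 1 called by DESeq2. The difference between the sexes in the effect of HDM201 was likewise called for none, where 0.107% of 14974 genes were, with none at an unadjusted p under 0.05 and none by DESeq2. An effect passing in 1 sex alone was therefore not shown to be larger in that sex.

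The counts of the lists that follow stand against the shares of all genes tested that were called, which were 16.8% higher and 15% lower in old females, 2.76% higher and 0.931% lower in old males, 2.35% higher and 2.9% lower with HDM201 in females, and 0% higher and 0.00709% lower with HDM201 in males. Genes with too few reads were not tested, and a gene near 0 in 1 group could be tested through its reads in the other, where it is high. In a longer list of 40 other ductular genes, with age in females 11 of 28 tested rose and 2 fell, with a median of 0.22. Prom1, a surface protein of progenitor cells, rose by 2.64 ± 0.19 from 3.75 ± 1.13 CPM (SD, n = 5) to 23.2 ± 4.75 CPM (SD, n = 4). Itga6, a laminin receptor chain, rose by 1.67, and Cd44, a receptor for hyaluronan and osteopontin, by 1.47. Pdzk1ip1 fell by 1.32, and the epithelial cadherin Cdh1, which hepatocytes also express, fell by 0.996. With age in males 2 of 28 rose, the matrix protease Mmp7 by 3.28 ± 0.44, from 0.142 to 1.37 CPM, and the protease inhibitor Spint1 by 1.08, and the median was 0.50.

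With HDM201 in females 3 of 34 of these other ductular genes rose and 1 fell, with a median of 0.37. The tetraspanin Tspan8 and the epithelial transcription factor Grhl2 each rose by 1.14 and the RNA-binding protein Bicc1 by 0.71. Cd44 fell by 1.00, from 14.1 ± 4.18 CPM (SD, n = 4) to 7.07 ± 0.79 CPM (SD, n = 5). In whole liver it thus went opposite to Spp1, whose product it binds, in the drug comparison, and the cells behind the values of Cd44 and Spp1 were not tested. With HDM201 in males none of 29 passed, with 1 at an unadjusted p under 0.05 and a median of 0.29. Krt8 and Krt18, keratins that hepatocytes share, did not pass with HDM201 in either sex (log2 fold change 0.31 to 0.38).

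Other lists placed around the ductular genes gave the following counts. Of the receptors of osteopontin 5 of 9 rose with age in females and 1, Itgb5 (0.46), in males, and 1 of 9, Cd44, fell with HDM201 in females. Of the Notch pathway, which drives biliary differentiation, 5 of 16 rose and 1 fell with age in females, led by Sox4 (1.25) and with Hes6 falling by 0.70, while 1 of 16, the target Hes1, rose with HDM201 in females (0.78 ± 0.17). None passed in males by edgeR, with 1 of 16 for age and 2 of 15 for HDM201 at an unadjusted p under 0.05. The list of YAP and TEAD targets also held the effectors Yap1 and Wwtr1 and the factors Tead1 and Tead4. Of that list 3 of 14 rose with age in females, led by the receptor kinase Axl (1.15), and 1 fell, shares near or below those of all genes (16.8% higher, 15% lower). In that list 1 of 13 rose with age in males (Wwtr1, an effector and not a target, 0.69) and, with HDM201 in females, 1 of 14 rose (Ankrd1, 1.14) and 1 fell. The effector Yap1 itself did not pass in any of the 4 comparisons (-0.11 to 0.13). Of the secretory genes of bile ducts 2 of 10 rose and 2 fell with age in females, where the potassium channel Kcnn4 changed most (1.17) and both shares were near those of all genes (16.8% and 15%), and none of 10 passed in the other 3 comparisons, with 4 (age in males), 1 (HDM201 in females) and 0 (HDM201 in males) at an unadjusted p under 0.05 by edgeR. Of the cytokines of reactive ducts 5 of 8 tested, of 14 found, rose with age in females. They were led by Ccl2 (1.96), which was at 0.28 CPM in young vehicle females. With age in males 1 of 8 rose (Tnfsf12, 0.81), with none for HDM201, where 1 of 8 in females and 2 of 8 in males had an unadjusted p under 0.05 by edgeR. Of the 3 tested partners of Cd24a and mucins among siglecs and selectins, 2 rose with age in females, Siglecg by 1.97 and Siglec1 by 0.71, and Siglec1 fell by 1.09 with HDM201 in females.

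Markers of other cells moved in the same mice. Macrophage and Kupffer cell markers rose with age in 11 of 13 in females and 4 of 13 in males, while the scavenger receptor Cd163 fell with age in females (-1.82). With HDM201 in females 11 of 13 fell, with a median of -1.04 over the list, opposite to Spp1. Clec4f, the Kupffer cell lectin, went from 158 ± 38.1 CPM (SD, n = 4) in old vehicle females to 81.6 ± 12.8 CPM (SD, n = 5) in old HDM201 females. Of lipid-associated macrophage markers, a state known for making osteopontin, 6 of 9 rose with age in females and 6 of 10 in males, led by Gpnmb in both (4.34 and 4.41), the fatty acid binding protein Fabp5 fell with age in females (-1.73), and none of 10 passed with HDM201 by edgeR (median 0.17 in females, with 4 at an unadjusted p under 0.05, and 0.47 in males, with 0). Hepatocyte markers fell in 4 of 11 with age in females, Ass1 by 0.96, and in 1 of 11 with HDM201 in females, Hnf4a by 0.265. With age in females 5 of 13 stellate cell and fibroblast markers and 3 of 3 tested neutrophil markers, of 9 found, also rose, and of 8 endothelial markers 1 rose and 1 fell. The 9 neutrophil markers summed to only 2.01 to 4.25 CPM in young vehicle females, with S100a9 at 0.33 ± 0.27 CPM (SD, n = 5). With age in males 1 of 13 stellate cell and fibroblast markers rose. With HDM201 in females 1 of 13 and 1 of 4 in those lists fell, and 1 of 8 endothelial markers fell. With HDM201 in males no gene of these lists passed by edgeR, and 2 of 13 stellate cell and fibroblast markers and 1 of 11 hepatocyte markers, with none in the other lists, had an unadjusted p under 0.05. The part of these cells in the values of the 8 genes was not tested.

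**Figure D4:**
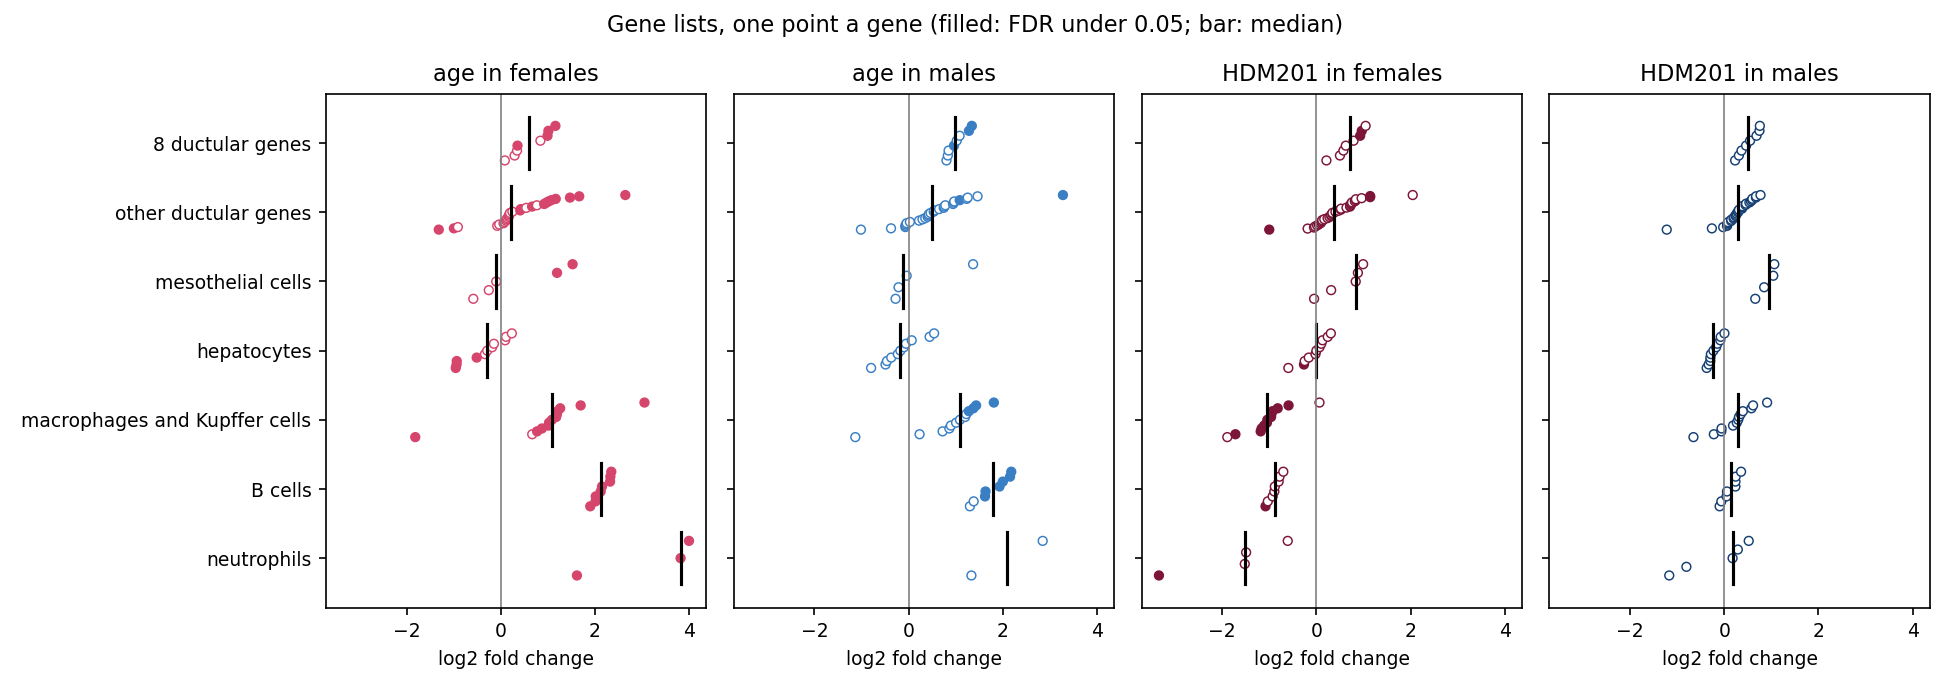
Log2 fold change (horizontal axis) of each tested gene of 7 lists in the comparisons of age and HDM201 within each sex, filled where the FDR was under 0.05, with the median of each list as a bar. For HDM201 in females the ductular lists have medians of 0.71 and 0.37 while the macrophage list lies at -1.04 and the B cell list at -0.89.

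The genes were also compared for likeness from mouse to mouse, as Pearson's r of log2(CPM + 1) after the mean of each group was removed, over 27 mice that share depth and composition effects, which describes these libraries and tests nothing. Krt7 was most like Upk3b (r = 0.83), Prph (0.81) and Upk1b (0.81), of which the uroplakins Upk3b and Upk1b are mesothelial markers. Without old HDM201 male 4 it was most like Efs (0.83), D930048N14Rik (0.80) and Upk3b (0.76). Krt19 was most like Sema3c, Tpm1 and S100a11 (0.83 to 0.84), with Krt7 itself at 0.79, and without that mouse most like Vim, Obsl1 and Col6a2 (0.81 to 0.82). Epcam was most like Mmp7 (0.78), Anxa13 (0.77) and Nr1h5 (0.76), of which Mmp7 (0.71) and Nr1h5 (0.70) were still among its 3 nearest without that mouse. Spp1 was most like Hpca (0.82), Slc4a3 (0.81) and Anxa5 (0.81), none of which was among its 3 nearest without old HDM201 male 4. Cd24a stood nearest to AI662270 (0.86, and 0.92 without that mouse), Cldn7 to Gm6781 (0.70, and 0.66 without it) and Muc1 to Slc13a5 (0.73), where without it Fcgbp came first (0.72), with Slc13a5 at 0.69. Sox9 was the member least like the rest, with r of -0.11 to 0.23 to the other 7 genes over all mice and of -0.035 to 0.46 without old HDM201 male 4.

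The 2 mice without counts were read from FPKM, scaled by the median ratio over all 29 mice. Old vehicle male 1 had 167 scaled FPKM of Spp1 against 31.8 to 43.6 in the other 4 old vehicle males, and 47.8 of Cd24a against 1.55 to 3.01. Its summed B cell markers were 171 against 6.38 to 9.99, and its mesothelial markers 7.41 against 2.06 to 2.84. Young vehicle male 5 had 88.2 scaled FPKM of Spp1 against 13.6 to 23.9 in the other 4 young vehicle males, 6.43 of Sox9 against 0.957 to 1.36, and 7.56 of Cd24a against 0.843 to 1.10, with summed neutrophil markers of 655 against 0.828 to 5.73. Both vehicle mice thus lay above every other vehicle male of their group in Spp1, Sox9 and Cd24a. The methods of the study leave out a young male for a wound and suspected infection without giving its number. With these 2 mice in a limma fit of log2(FPKM + 1), none of the 8 genes was called with age in males, where Spp1 had 0.93 (adjusted p 0.483) and Cd24a 1.07 (adjusted p 0.575). The same limma fit of FPKM on the mice with counts alone called Spp1 (0.935, adjusted p 0.0429) and not Cd24a (0.707, adjusted p 0.0756) or Cldn7 (0.477, adjusted p 0.414).

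**Figure D5:**
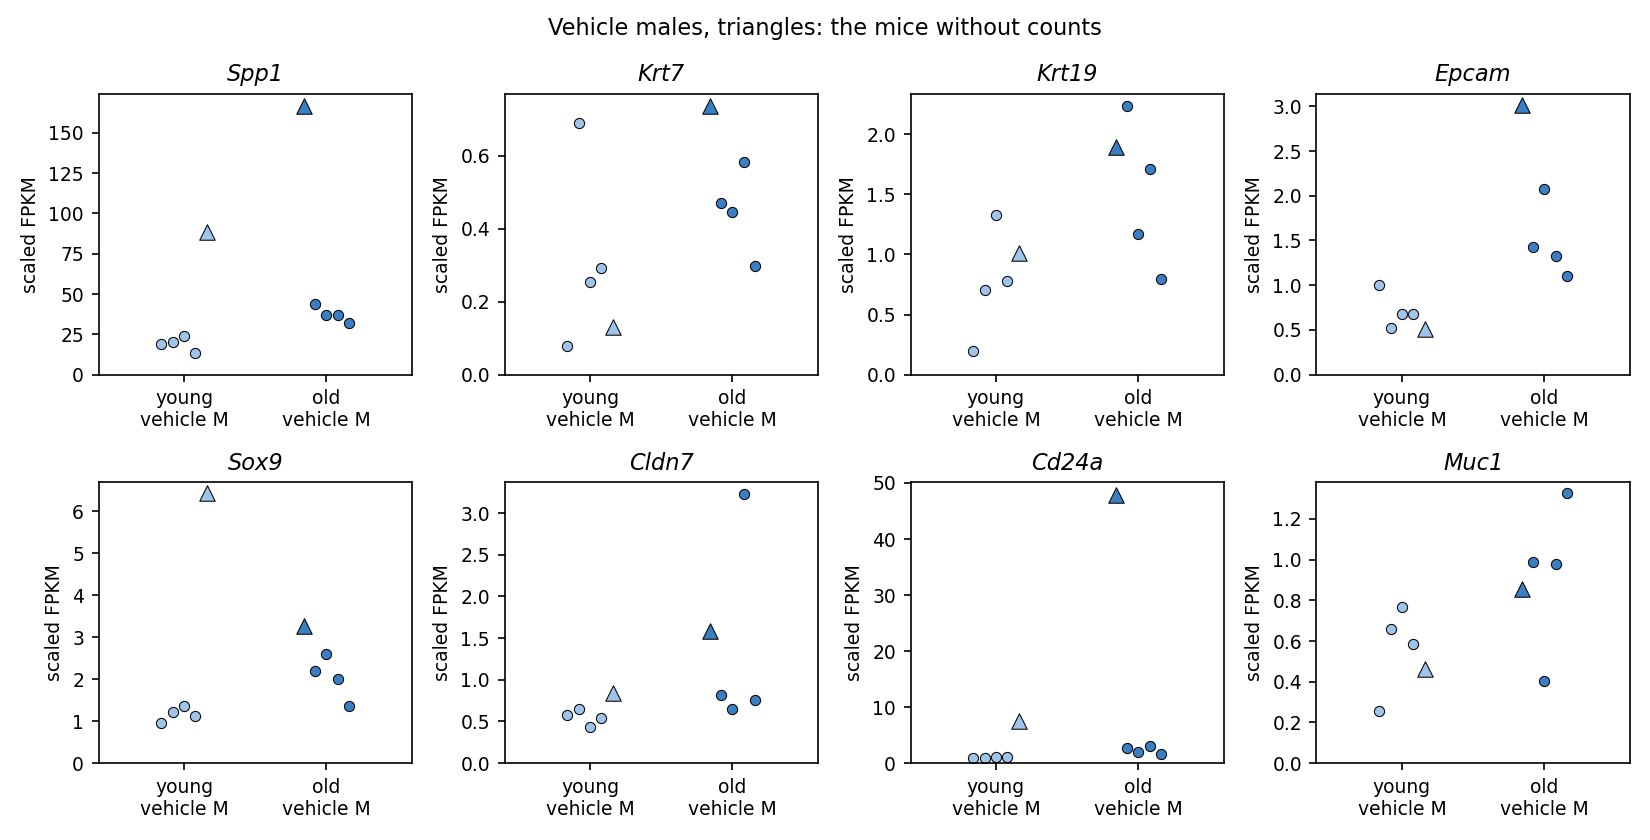
Scaled FPKM of the 8 genes (vertical axes, from 0) in each vehicle male, young and old, with triangles for the mouse of each group that has no counts. Old vehicle male 1 is high in Spp1 (167) and Cd24a (47.8), and young vehicle male 5 in Spp1 (88.2), Sox9 (6.43) and Cd24a (7.56).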

How the data were processed

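Per the labels and methods, the authors aligned reads of polyA RNA of whole liver to mm10 with the 2-pass mode of STAR, filtered them with SAMtools and obtained the deposited raw read counts per gene with HTSeq, without normalization. The deposited FPKM values were made by the authors with Cufflinks for display, and empty cells were read as 0. Counts covered 27 of 29 mice, and sums of FPKM ranged from 690769 to 6010510, so FPKM served for the 2 other mice and as an alternative. No columns of other samples were found (0).

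Each comparison was fitted on the counts of its own groups with edgeR 4.0.16 in R 4.3.3 (TMM, filterByExpr at min.count 10 and min.total.count 15, glmQLFit and glmQLFTest, Benjamini-Hochberg over all genes tested, FDR under 0.05), and the rows of the 8 genes were read from it. The SE is the size of the log2 fold change divided by the square root of F. All p-values are two-sided. The sex comparison is female minus male, and sex by age and sex by HDM201 are the female effect minus the male effect. The methods name DESeq2, which was run as an alternative (1.42.0), besides RLE size factors, no filter, an FDR under 0.01, 1 fit over all 6 groups, a block for the replicate number, leaving out each mouse in turn, and limma 3.58.1 on log2(FPKM + 1), log2(FPKM + 0.1) and without the filter on a mean FPKM of 0.1. The FPKM fit without the 2 mice that have no counts was added after seeing the data. CPM used TMM over all mice, and RPKM the union of exons in GENCODE vM21. Nothing in the labels pairs mice, and each mouse was treated as a separate animal.

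All genes named in other lists follow a rule: of the other ductular genes, the 3 largest called rises and falls in each comparison, of each other list, the called gene with the largest change and the most abundant one, and the 3 genes most like each of the 8. Krt8, Krt18, Cd163 and Fabp5 were named besides, after their values were seen. The 8 genes, the lists and the tests were chosen with earlier results of these data known. The scripts were tested on simulated data.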

Additional observations from a re-analysis of the deposited data

Results flagged for a closer look

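Of 48 groups of values tested for a sample far from the others (Dixon's ratio), 5 had one, and chance gives about 1 in 20 such groups. Old HDM201 male 4 was far above its group in Spp1 (175 CPM), Krt7 (4.30 CPM) and Krt19 (6.28 CPM), and it also had the highest mesothelial marker sum of the group, 36.6 CPM against 5.13 to 10.4. Old HDM201 female 3 was far above its group in Cd24a (10.3 CPM) and Muc1 (3.23 CPM).

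The mice without counts enter no comparison of counts, and they lay above all 4 other vehicle males of their group in several of the 8 genes. Young vehicle male 5 did so in 4 of 8, Spp1 (88.2 scaled FPKM), Sox9 (6.43), Cldn7 (0.839) and Cd24a (7.56). Old vehicle male 1 did so in 5 of 8, Spp1 (167 scaled FPKM), Krt7 (0.738), Epcam (3.02), Sox9 (3.26) and Cd24a (47.8). The cause was not tested.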

How the results depend on the processing

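Of 1112 values of single genes under an alternative, 979 kept their direction and their side of the threshold, 84 lost and 21 gained a call, and 28 changed sign. RLE size factors changed no count of the 8 genes called. An FDR under 0.01 left 2 of 4 genes called with age in females, 0 of 3 with age in males, 0 of 2 with HDM201 in females and 0 of 2 by sex, and of all genes 2513 of 4530, 82 of 507, 110 of 758, 0 of 1 (HDM201 in males), 480 of 1462, 48 of 577 (sex by age) and 0 of 16 (sex by HDM201). DESeq2 called 5 of the 8 with age in males and 1 for sex by age, and of all genes 1309 (age in males), 1329 (HDM201 in females), 169 (HDM201 in males), 1173 (sex by age) and 664 (sex by HDM201). Without the filter on low counts these were 968 with age in males, 22 with HDM201 in males and 122 for sex by HDM201. All 6 groups in one fit gave 5 of the 8 with age in males and 1 with HDM201 in females, and of all genes 2007 (age in males), 208 (HDM201 in females), 6 (HDM201 in males) and 2483 (sex in young mice).

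Replicate numbers did not pair the mice, since the deviations of same-numbered mice correlated by -0.22 to 0.22, and 9 of 38 mice, counted once for each of the 5 comparisons of 2 groups, were most like the mouse of their own number. With the replicate block 2 of the 8 were called with age in females, 0 with age in males, 1 with HDM201 in females and 1 by sex, and of all genes 29 with age in males, 366 with HDM201 in females, 858 by sex, 183 for sex by age and 0 for sex by HDM201. With it Krt19 for sex by HDM201 went from -0.11 to 0.072.

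On log2(FPKM + 1), log2(FPKM + 0.1) and log2(FPKM + 1) with no filter, none of the 8 (0) was called with age in males, with HDM201 in females or by sex, and with no filter 2 were called with age in females. All genes called there numbered 68, 112 and 49 with age in males, 85, 104 and 16 with HDM201 in females, 498, 514 and 322 by sex, and 2630 with age in females without the filter. Of the mice without counts, both enter the FPKM fit of age in males, 1 enters those of HDM201 in males and of sex, and neither enters those in females. Without these mice, an alternative chosen after seeing the data, log2(FPKM + 1) gave 1 of the 8 and 174 of all genes with age in males, 0 and 2 with HDM201 in males and 0 and 703 by sex, where Muc1 was -0.0608. With these mice in the fit of log2(FPKM + 1), Cldn7 with HDM201 in males was -0.00222 and Cd24a with HDM201 in males -0.584 (-0.619 with the smaller pseudocount). In the same fit Cd24a by sex was -0.277 (-0.321) and Muc1 by sex -0.0422 (-0.149). Without these mice Cldn7 and Cd24a with HDM201 in males were 0.0456 and 0.192, and Cd24a by sex was 0.135. The cause was not tested.

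With each mouse left out, the 8 genes gave 1 to 3 calls with age in males, 1 to 3 with HDM201 in females and 0 to 2 by sex, and all genes gave 144 to 579 (age in males), 185 to 956 (HDM201 in females), 0 to 13 (HDM201 in males), 764 to 1864 (sex), 207 to 1193 (sex by age) and 0 to 314 (sex by HDM201). Log2 fold changes that crossed 0 were those of Krt7 (-0.281 to 0.377) and Krt19 (-0.0674 to 0.511) with age in females, Krt7 with HDM201 in males (-0.196 to 0.548), Cd24a (-0.291 to 0.0371) and Muc1 (-0.221 to 0.30) for sex by age, and Krt19 (-0.331 to 0.340) and Muc1 (-0.248 to 0.270) for sex by HDM201. Depth limits the keratins, Cldn7 and Muc1, counted with as few as 6 to 10 reads a mouse.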

Other observations

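The vehicle males without counts differed from their groups beyond the ductular genes. Old vehicle male 1 had the lowest summed hepatocyte markers, 32987 scaled FPKM against 58487 to 83086 in the other old vehicle males, and more T and NK cell markers, 26.0 against 4.03 to 10.8, and stellate cell and fibroblast markers, 186 against 91.5 to 145. Young vehicle male 5 had 3033 scaled FPKM of the reactive cytokine list, in which Lcn2 is the most abundant gene, against 32.7 to 333 in the other young vehicle males, and 528 of macrophage and Kupffer cell markers against 97.2 to 194. Its hepatocyte markers, 53973, lay within the range of its group, 52888 to 62324.

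Erythroid markers had medians of 0.17 and 1.59 with age in females and males and of -1.34 and -2.26 with HDM201. With age in females 1 of 5, Hbb-bt, rose, near the share of all genes called higher (16.8%). None of 5 passed in the other 3 comparisons by edgeR, with 4 (age in males), 5 (HDM201 in females) and 4 (HDM201 in males) at an unadjusted p under 0.05. Of all genes, 2.76% were called higher and 0.931% lower with age in males. With HDM201 these shares were 2.35% and 2.9% in females and 0% and 0.00709% in males. Of T and NK cell markers 2 of 7 rose with age in females (all genes: 16.8%), among them Cd8a (1.62), and 1 of 3 in males (Trac, 1.73, all genes: 2.76%), with none for HDM201, where 2 of 8 in females and 2 of 7 in males had an unadjusted p under 0.05 by edgeR. Of pancreas markers Cela2a alone was abundant enough to be tested, and it fell with age in females by 1.71, where 15% of all genes were called lower.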
